A study of Cicer arietinum with 12 samples.

Results

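The effect of drought on leaf gene expression was compared between 2 chickpea (Cicer arietinum) genotypes, as the drought effect of ICC8261 minus the drought effect of ICC283. A positive difference means that the log2 change of a transcript under drought was higher in ICC8261 than in ICC283 (a larger rise, a smaller fall, or a rise against a fall), and a negative difference the reverse. All 12 RNA sequencing libraries of the series entered the comparison, 12 of 12, in 4 groups of 3: ICC283 well-watered, ICC283 drought, ICC8261 well-watered and ICC8261 drought. Per the labels ICC8261 is drought tolerant and ICC283 drought sensitive, the well-watered pots were held at 80% of field capacity and the drought pots at 20%, and the leaves came from the shoot apical meristem stage of glasshouse plants kept between 23 and 28 °C. Each genotype had 6 pots, divided at random between the treatments. Each kind of plant is represented by a single line, so tolerance and any other difference between these lines cannot be told apart. The question set by the design was how the drought response of the leaf, in particular of transcription factor and hormone genes, differed between the genotypes.

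Plants short of water accumulate abscisic acid, close their stomata and switch on genes for protective proteins such as dehydrins and other late embryogenesis abundant (LEA) proteins. Ethylene, made by way of ACC with the enzymes ACC synthase and ACC oxidase, is another hormone of the stress response, and NAC proteins form a large plant family of transcription factors with members that act in drought, senescence and development. UDP-glycosyltransferases (UGTs) attach sugars to hormones, flavonoids and other small molecules, and plastid genes encode parts of the photosynthetic machinery and the RNAs that translate them.

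The treatment of 4 libraries conflicted between the deposited sources, and every result below rests on which source is followed. Here the treatment is that of the columns of the authors' deposited tables. The reads in the table columns of ICC283 well-watered library 3 and ICC283 drought library 3 equal the count files of the opposite treatment, and so do those of ICC8261 well-watered library 1 and ICC8261 drought library 2. The other 8 libraries, 2 per group, carry the same treatment in both sources, and the difference fitted to these alone is given beside the differences of the genes named below as the value in the 8 libraries. Between 8909550 and 12189881 reads per library were assigned to genes. Alignments that were not unique made up 48.1% to 50.6% in well-watered and 50.5% to 53.5% in drought libraries of ICC283, and 44.1% to 50.01% and 49.3% to 52.8% in those of ICC8261. The ranges lay higher under drought in both genotypes, and the part of that share in the results was not tested. None of the leaf or meristem markers could be found by symbol, so the tissue was not checked that way, while the seed storage gene LEG had at most 2 reads in any library.

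With the 12 libraries, edgeR's quasi-likelihood test called 479 of 18591 genes for the difference between the drought effects at a Benjamini-Hochberg adjusted p of 0.05, 2.58% of the genes tested. The difference was positive for 297 genes (1.6%) and negative for 182 (0.979%), and its size reached 1 or more on the log2 scale for 421 of them. The absolute difference of the called genes had a median of 1.53, and the median difference over all genes tested was 0.07. In the same fit drought changed 36.7% of genes in ICC283, 3087 upward (16.6%) and 3744 downward (20.1%), and 18.7% in ICC8261, 1828 upward (9.83%) and 1640 downward (8.82%). Only 12 of the 479 genes have a symbol rather than a numbered locus identifier, and these are described by family below. In ICC283 the drought and well-watered libraries did not overlap for 8412 of the 18591 genes tested and for 427 of the 479. In ICC8261 they did not overlap for 8376 of the 18591 and 280 of the 479. Separate groups of single genes below stand beside these shares. In bulk leaf RNA, fewer cells of a type and less RNA per cell cannot be told apart, in these and all later values.

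**Figure D1:**
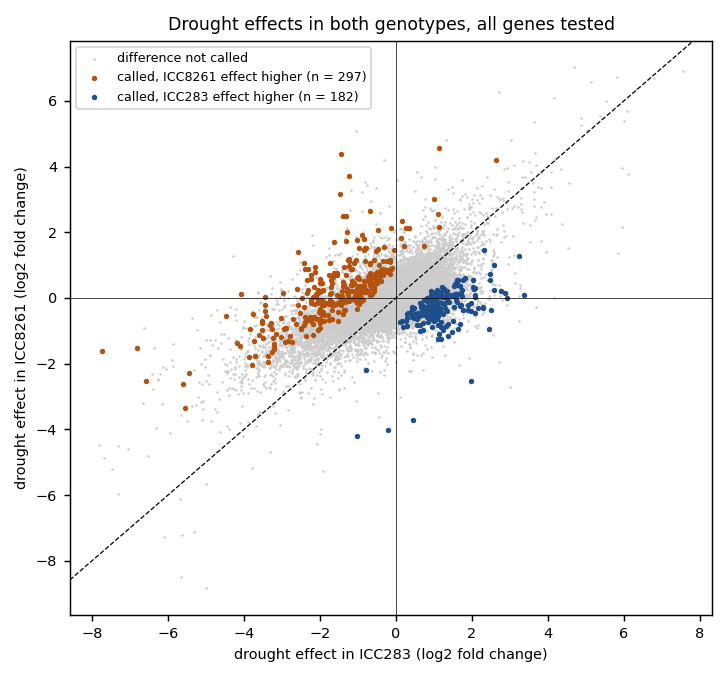
Each point is 1 of 18591 genes, with its log2 fold change under drought in ICC283 on the x axis and in ICC8261 on the y axis, and the dashed line marks equal effects. The 297 genes called with a higher effect in ICC8261 lie above the line and the 182 called with a higher effect in ICC283 below it, mostly to the left and to the right of 0 on the x axis.

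The number of calls depended on single libraries and on the labels. Without ICC283 well-watered library 1, 2 or 3 it was 277, 57 and 2298, and without ICC283 drought library 1, 2 or 3 it was 55, 112 and 918. Leaving out ICC8261 well-watered library 1, 2 or 3 gave 223, 65 and 85 calls, and leaving out ICC8261 drought library 1, 2 or 3 gave 79, 192 and 274. In the 8 libraries of agreed treatment 2354 genes were called (12.6%), of which 457 were among the 479 with the same sign. With the treatment of the count files edgeR's quasi-likelihood test called 0 genes, with 634 below an unadjusted p of 0.05, and DESeq2 called 0, with 738 below it. All 479 genes kept their sign in each of these fits under the tables' labels, and 468 kept it under the count-file labels. These fits reuse libraries of the fit that chose the genes, so the kept signs are no separate support. In the 12 fits that left out 1 library, 45 of the 479 were called every time.

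**Figure D2:**
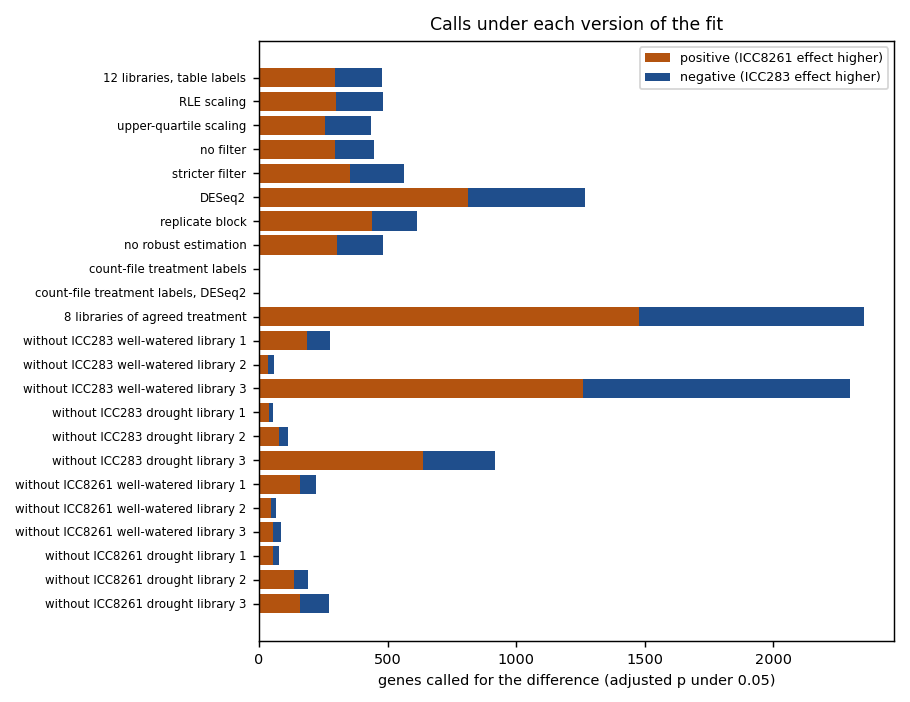
Bars give the number of genes called for the difference (adjusted p under 0.05) under each version of the fit, split into positive and negative differences. The count was 479 with 12 libraries and the tables' labels, 2354 in the 8 libraries, 0 with the count-file labels, and between 55 and 2298 when 1 library was left out.

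Most called genes had changed with drought in ICC283. Of the 479, 168 fell in ICC283 and were not called in ICC8261, with a median log2 fold change of -1.68 in ICC283 and 0.09 in ICC8261. A further 144 rose in ICC283 and were not called in ICC8261, with medians of 1.19 and -0.17. The reverse was less frequent among the called genes: 43 rose in ICC8261 and were not called in ICC283, and 13 fell in ICC8261 and were not called in ICC283. Opposite and called changes were found for 47 genes, 29 that fell in ICC283 and rose in ICC8261 and 18 that rose in ICC283 and fell in ICC8261. The remaining 64 changed in the same direction in both genotypes by different amounts, 53 downward and 11 upward, and 51 of those 53 had the smaller fall in ICC8261. These counts sort the called genes by the effects that make up the difference and are no separate test, and the share of genes called under drought was itself larger in ICC283 (36.7% against 18.7%).

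**Figure D3:**
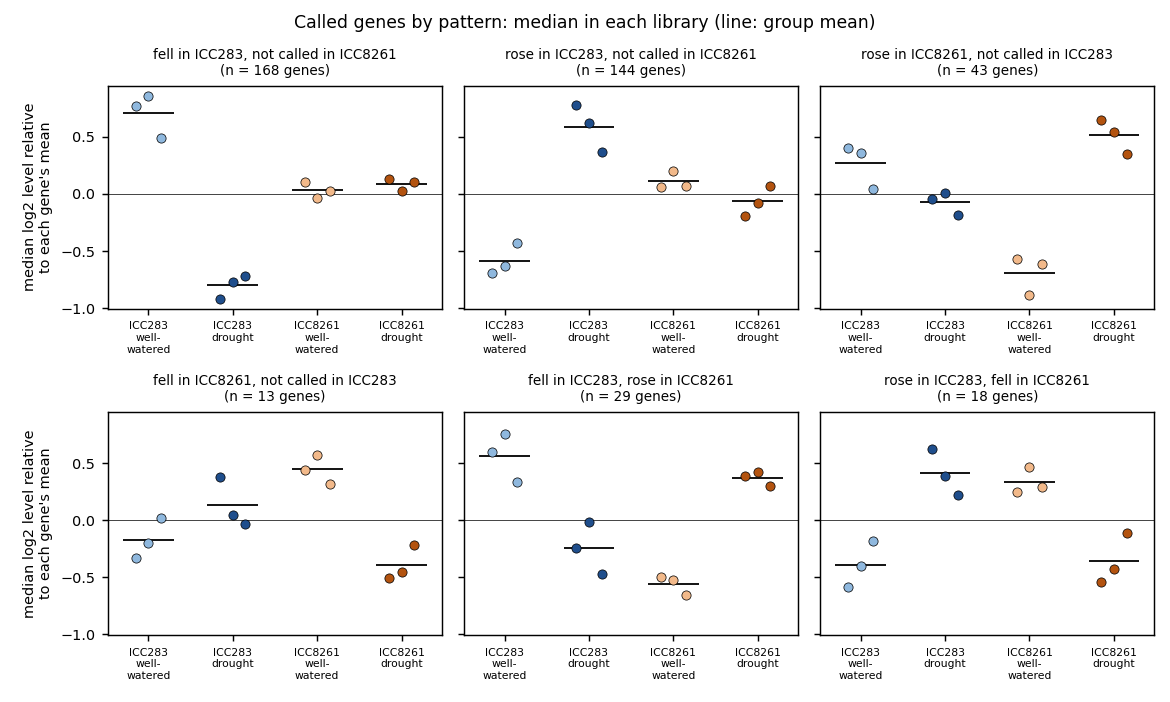
Each panel holds the called genes of 1 pattern, and each point is the median over these genes of the log2 level in 1 library relative to the gene's mean over the 12 libraries (lines, group means). For the 168 genes that fell in ICC283 the well-watered ICC283 libraries stood at 0.77, 0.86 and 0.49 and the drought libraries at -0.92, -0.77 and -0.72, while the 6 ICC8261 libraries lay between -0.03 and 0.14.

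In each set but that of the 64 genes with the same sign in both genotypes, library 3 of the well-watered ICC283 group, whose treatment conflicts, lay nearest to the drought libraries of its genotype. For the 144 genes that rose in ICC283 the medians of the well-watered libraries were -0.69, -0.63 and -0.43, and those of the drought libraries 0.78, 0.62 and 0.37. Library 3 had the smaller deviation in both groups, and the groups did not overlap. The genes were chosen by a called rise under these same labels, so the separation cannot show which source has the right treatment.

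The difference can also be read as a change in how the genotypes stand to each other. Among the 479 genes the genotypes differed when well-watered only for 189, under drought only for 199, under both treatments for 63 and under neither for 28, at an adjusted p of 0.05 (background 12.7% of genes when well-watered and 10.3% under drought). Of the 63 genes, 53 had the higher level in opposite genotypes under the 2 treatments. Among the 297 positive genes 141 were higher in ICC283 when well-watered (7.55% of all genes) and 169 were higher in ICC8261 under drought (6.19%). Among the 182 negative genes 106 were higher in ICC8261 when well-watered (5.12%) and 88 were higher in ICC283 under drought (4.1%). The difference is also the genotype difference under drought minus that when well-watered. Counts above the shares of all genes therefore follow from how the genes were chosen and are no separate test.

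Of the hormone genes found by symbol, ACS had opposite drought responses. ACS is a symbol in common use for ACC synthase of ethylene synthesis, and the reference table gives no product name for it. In ICC283 its level was 78.5, 101 and 69.9 CPM (counts relative to library size, with TMM scaling) in well-watered libraries 1 to 3 and 38.6, 35.1 and 27.05 under drought. ICC8261 had 30.4, 47.6 and 59.5 CPM when well-watered and 72.5, 80.04 and 72.3 under drought. The treatment conflicts between the sources for its lowest well-watered library (1) and its highest drought library (2). All drought libraries lay below the well-watered libraries in ICC283 and above them in ICC8261. On the log2 scale ACS fell in ICC283 (-1.30 ± 0.22, adjusted p = 0.00089) and rose in ICC8261 by 0.71 ± 0.22 (adjusted p = 0.0412). The difference was 2.01 ± 0.32 (SE, n = 3 libraries per group, edgeR adjusted p = 0.0127), 1.75 ± 0.22 in the 8 libraries (adjusted p = 0.00344) and 0.43 ± 0.68 with the count-file labels, which was not called (adjusted p = 1). ICC283 was the higher genotype when well-watered (-0.86 ± 0.22 for ICC8261 against ICC283, adjusted p = 0.0263) and ICC8261 under drought (1.16 ± 0.22, adjusted p = 0.0079). The gene was called in each of the 12 fits that left out 1 library.

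The list of hormone synthesis and signalling genes had 4 tested members, of which 1 was called positive and 0 negative, beside 1.6% and 0.979% of all genes. All 4 differences were above 0, beside 54.8% of all genes, with a median of 0.80 against 0.07 over all genes tested. With the count-file labels the list median was 0.04 and 3 of 4 were above 0. HP3 rose in both genotypes (log2 fold change 1.65 in ICC283, 2.43 in ICC8261). Its difference of 0.77 ± 0.33 was not called (adjusted p = 0.214; 0.70 in the 8 libraries, adjusted p = 0.413). The gene aco, listed under the symbol in use for ACC oxidase, fell in both genotypes (log2 fold change -1.66 in ICC283, -0.83 in ICC8261), and its difference of 0.83 ± 0.27 was not called (adjusted p = 0.11; 0.70 in the 8 libraries, adjusted p = 0.162). The gene listed as ACO1 had a difference of 0.05 ± 0.40 (adjusted p = 0.965; 0.13 in the 8 libraries, adjusted p = 0.922).

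NAC transcription factors were the best represented family among the called genes with a symbol, and also the list with most members tested. Of the 321 tested genes with a symbol, 50 were NAC genes. Of 62 NAC genes in the files 50 were tested, and 5 were called, all with a positive difference, against 2.58% of all genes. NAC genes had differences between -1.69 and 2.61 with a median of 0.74, and 41 of 50 were above 0, beside 54.8% of all genes. Within ICC283 15 of the 50 NAC genes fell and 4 rose under drought, beside 20.1% and 16.6% of all genes, and within ICC8261 1 fell and 5 rose, beside 8.82% and 9.83%. In the 8 libraries 11 NAC genes were called positive and 0 negative, beside 7.88% and 4.68% of all genes, and the list median was 0.86. With the count-file labels the median was 0.38, 36 of 50 were above 0 and 0 were called. NAC genes and UGTs form multigene families, so reads shared by near-identical copies make their single values uncertain, and without a stated strand setting reads of an antisense neighbour cannot be told apart.

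The NAC gene with the smallest p was NAC47, at 53.5, 59.5 and 46.8 CPM in well-watered and 14.1, 13.1 and 13.6 CPM in drought libraries of ICC283. In ICC8261 it stood at 20.5, 38.5 and 24.1 CPM when well-watered and 33.3, 44.5 and 19.1 CPM under drought. The ICC283 drought libraries were the lowest of the 12 and lay close together, while the ICC8261 groups overlapped. NAC47 fell in ICC283 (-1.97 ± 0.29, adjusted p = 0.000359) and had a log2 fold change of 0.22 ± 0.28 in ICC8261 (adjusted p = 0.606). The difference was 2.19 ± 0.40 (adjusted p = 0.0231), 1.82 ± 0.41 in the 8 libraries and 0.22 ± 0.83 with the count-file labels. The call was lost without ICC283 well-watered library 2, ICC283 drought library 1 or 2, ICC8261 well-watered library 3 or ICC8261 drought library 1.

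NAC69 and NAC6 fell in ICC283 and were not called in ICC8261. NAC69 had 20.3, 18.6 and 14.9 CPM in well-watered ICC283 and 4.93, 4.53 and 4.87 under drought, and 14.9, 9.23 and 14.2 CPM when well-watered and 10.2, 7.17 and 9.42 CPM under drought in ICC8261. Its groups were separate in ICC283 and overlapped in ICC8261. NAC6 stood at 65.6, 63.5 and 35.97 CPM in well-watered and 14.4, 14.6 and 7.68 CPM in drought libraries of ICC283, and at 36.1, 42.6 and 32.5 CPM when well-watered and 28.1, 24.3 and 22.6 CPM under drought in ICC8261. Both its pairs of groups were separate, with library 3 the lowest in each ICC283 group. The fall in ICC283 was -1.90 ± 0.22 for NAC69 and -2.17 ± 0.26 for NAC6, against -0.52 ± 0.21 (adjusted p = 0.0999) and -0.57 ± 0.25 (adjusted p = 0.129) in ICC8261. The differences were 1.39 ± 0.30 (adjusted p = 0.0358) and 1.60 ± 0.36 (adjusted p = 0.0413), and 1.82 ± 0.32 and 1.62 ± 0.24 in the 8 libraries. NAC69 was called in 4 and NAC6 in 2 of the 12 fits that left out 1 library.

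NAC51 changed in the same sense. It stood at 9.44, 13.7 and 7.25 CPM in well-watered ICC283, 1.41, 3.37 and 4.22 under drought, 8.59, 9.15 and 9.55 in well-watered ICC8261 and 10.1, 9.92 and 9.696 under drought. In ICC283 the drought libraries lay below the well-watered ones, and the 6 ICC8261 libraries differed little. Its log2 fold change was -1.75 ± 0.32 in ICC283 (adjusted p = 0.00125) and 0.12 ± 0.29 in ICC8261 (adjusted p = 0.794), and the difference 1.87 ± 0.43 (adjusted p = 0.0421; 2.36 ± 0.46 in the 8 libraries).

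NAC5 had another pattern, with a rise in ICC8261. It stood at 119, 135 and 98.3 CPM in well-watered and 155, 151 and 106 CPM in drought libraries of ICC283, which overlapped, and at 39.95, 36.5 and 40.03 CPM when well-watered and 138, 138 and 73.2 CPM under drought in ICC8261, which did not. The well-watered ICC8261 libraries were the lowest of the 12. NAC5 rose in ICC8261 by 1.58 ± 0.23 (adjusted p = 0.000909) and had a log2 fold change of 0.23 ± 0.23 in ICC283 (adjusted p = 0.451). The difference was 1.36 ± 0.32 (adjusted p = 0.0466), was not called in the 8 libraries (1.22 ± 0.35, adjusted p = 0.0575) and was 0.06 ± 0.75 with the count-file labels. NAC5 and NAC51 were each called in 2 of the 12 fits that left out 1 library. Of the NAC genes that missed the threshold with the 12 libraries and passed it in the 8, 3 chosen here after their values were seen are given: NAC43 had a difference of 1.95 ± 0.49 (adjusted p = 0.0543; 1.82 in the 8 libraries, adjusted p = 0.00444), NAC55 of 2.45 ± 0.68 (adjusted p = 0.0741; 2.56 in the 8 libraries, adjusted p = 0.0226) and NAC39 of 2.53 ± 0.72 (adjusted p = 0.0747; 4.07 in the 8 libraries, adjusted p = 0.0053).

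UDP-glycosyltransferases had 70 genes in the files and 48 tested, of which 2 were called positive and 0 negative. The share called, 2 of 48, was near the background of 2.58%. Their differences lay between -0.42 and 3.48 with a median of 0.74, and 45 of 48 were above 0, beside 54.8% of all genes. In ICC283 21 of the 48 fell and 1 rose (20.1% and 16.6% of all genes), and in ICC8261 4 fell and 3 rose, near the 8.82% and 9.83% of all genes. The 8 libraries gave 11 positive and 0 negative calls, beside 7.88% and 4.68% of all genes, and a median of 0.96, and the count-file labels a median of 0.24 with 35 of 48 above 0 and 0 called.

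UGT73C15 stood at 86.5, 77.3 and 61.6 CPM in well-watered and 29.5, 22.98 and 33.8 CPM in drought libraries of ICC283. The ICC8261 libraries had 20.7, 23.3 and 25.7 CPM when well-watered and 32.3, 27.1 and 31.01 CPM under drought. The well-watered ICC283 libraries stood above all 9 others, which lay within 20.7 to 33.8 CPM. The fall in ICC283 was -1.39 ± 0.17 (adjusted p = 0.000106), the log2 fold change in ICC8261 was 0.37 ± 0.17 (adjusted p = 0.141), and the difference was 1.76 ± 0.24 (adjusted p = 0.00701; 2.04 ± 0.21 in the 8 libraries and 0.93 ± 0.57 with the count-file labels). ICC8261 was below ICC283 when well-watered (-1.69 ± 0.17, adjusted p = 0.000136), and under drought the genotypes differed by 0.07 ± 0.17 (adjusted p = 0.835). UGT73C15 was called in each of the 12 fits that left out 1 library.

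UGT71S1 was the other called member. Its level was 619, 429 and 435 CPM in well-watered and 238, 219.9 and 205 CPM in drought libraries of ICC283, and 136, 97.3 and 139.5 CPM when well-watered and 137, 125 and 104 CPM under drought in ICC8261. The ICC283 groups were separate and all 6 ICC283 libraries lay above all 6 of ICC8261, whose groups overlapped. It fell in ICC283 (-1.16 ± 0.19, adjusted p = 0.000539) and had a log2 fold change of -0.02 ± 0.18 in ICC8261 (adjusted p = 0.942). The difference of 1.14 ± 0.26 (adjusted p = 0.0421) was 1.25 ± 0.32 in the 8 libraries and was called in 3 of the 12 fits that left out 1 library. The 3 UGT genes with the largest differences were not called, and they are named after their values were seen: UGT78K3 had 3.48 ± 1.26 (adjusted p = 0.148; 5.71 in the 8 libraries, adjusted p = 0.0888), UGT708B1 3.29 ± 1.36 (adjusted p = 0.203; 4.30 in the 8 libraries, adjusted p = 0.212) and UGT72AB1 3.26 ± 1.13 (adjusted p = 0.134; 5.15 in the 8 libraries, adjusted p = 0.0215).

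Among plastid-encoded genes, 43 in the files and 32 tested, 3 were called positive and 0 negative, beside 1.6% and 0.979% of all genes. Most tested members are transfer RNA genes by symbol, so the list is no survey of the plastid genes of photosynthesis. The list median was 0.41, with differences from -3.94 to 2.31 and 24 of 32 above 0 (54.8% of all genes). In ICC283 9 of the 32 fell and 2 rose, beside 20.1% and 16.6% of all genes, and in ICC8261 1 fell and 2 rose, beside 8.82% and 9.83%. The 8 libraries gave 4 positive and 0 negative calls, beside 7.88% and 4.68%, and a median of 0.47, while with the count-file labels the median was -0.03 and 16 of 32 were above 0.

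The gene atpF, for a subunit of the plastid ATP synthase, had 13207, 12513 and 8809 CPM in well-watered and 5658, 5389.6 and 7611 CPM in drought libraries of ICC283. In ICC8261 it had 6354, 6190.1 and 6947 CPM when well-watered and 9219.7, 7182 and 6504 CPM under drought. The drought libraries lay below the well-watered ones in ICC283, where library 3 of each group stood nearest to the other group, and the groups overlapped in ICC8261. The log2 fold changes were -0.89 ± 0.19 (adjusted p = 0.00303) and 0.23 ± 0.19 (adjusted p = 0.401), and the difference was 1.12 ± 0.26 (adjusted p = 0.0456), 1.51 ± 0.21 in the 8 libraries and 0.87 ± 0.37 with the count-file labels.

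The other called plastid genes encode transfer RNAs. The gene trnQ-UUG, for a glutamine transfer RNA, stood at 122, 142 and 170.2 CPM in well-watered and 76.2, 96.00 and 81.8 CPM in drought libraries of ICC283, and at 122, 97.3 and 87.2 CPM when well-watered and 132, 121 and 111 CPM under drought in ICC8261. Its ICC283 groups were separate and its ICC8261 groups overlapped. It fell in ICC283 (-0.78 ± 0.17, adjusted p = 0.00321), had a log2 fold change of 0.25 ± 0.16 in ICC8261 (adjusted p = 0.307), and differed by 1.02 ± 0.23 (adjusted p = 0.0411; 1.04 ± 0.22 in the 8 libraries). The gene trnfM-CAU, for the initiator transfer RNA, stood at 111, 136 and 170.0 CPM in well-watered and 31.3, 89.3 and 39.8 CPM in drought libraries of ICC283, and at 114, 77.9 and 48.9 CPM when well-watered and 161, 132 and 165 CPM under drought in ICC8261. Drought libraries were lower in ICC283 and higher in ICC8261 without overlap, although drought library 2 of ICC283 lay well above its 2 replicates. The fall in ICC283 was called (-1.38 ± 0.38, adjusted p = 0.0139), and the log2 fold change of 0.93 ± 0.37 in ICC8261 was not (adjusted p = 0.0983). The difference was 2.31 ± 0.53 (adjusted p = 0.0456) and was not called in the 8 libraries (2.42 ± 0.68, adjusted p = 0.0707). In the 12 fits that left out 1 library atpF was called in 3, trnQ-UUG in 4 and trnfM-CAU in 2. Reads of the mature transfer RNA and of longer transcripts across these short genes cannot be told apart.

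GRP1, listed under a symbol of glycine-rich proteins, was the only called gene with a symbol and a negative difference. It had few reads, with 1 to 31 reads per library. Its level was 0.615, 0.232 and 0.815 CPM in well-watered and 1.81, 2.75 and 2.16 CPM in drought libraries of ICC283, and 1.83, 1.36 and 2.29 CPM when well-watered and 0.106, 0.5003 and 0.274 CPM under drought in ICC8261. Drought libraries lay above well-watered ones in ICC283 and below them in ICC8261. GRP1 rose in ICC283 by 1.96 ± 0.50 (adjusted p = 0.00852) and fell in ICC8261 (-2.54 ± 0.54, adjusted p = 0.00698), a difference of -4.50 ± 0.73 (adjusted p = 0.0142; -5.49 ± 0.97 in the 8 libraries and -1.71 ± 1.40 with the count-file labels). It was called in each of the 12 fits that left out 1 library. Of the 4 lipid transfer and glycine-rich genes tested, 0 were called positive and 1 negative, beside 1.6% and 0.979% of all genes, and the median was -0.41. In the 8 libraries 1 was called positive and 3 negative, beside 7.88% and 4.68% of all genes, and the median was -2.16. LTP had -0.23 (adjusted p = 0.852; -1.20 in the 8 libraries, adjusted p = 0.0379). LTP2 had 0.66 (adjusted p = 0.0752; 0.79 in the 8 libraries, adjusted p = 0.028). GRP2 rose in both genotypes (log2 fold changes of 2.82 and 2.23) with a difference of -0.59 ± 0.97 (adjusted p = 0.781) that was -3.11 and called in the 8 libraries (adjusted p = 0.0231).

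**Figure D4:**
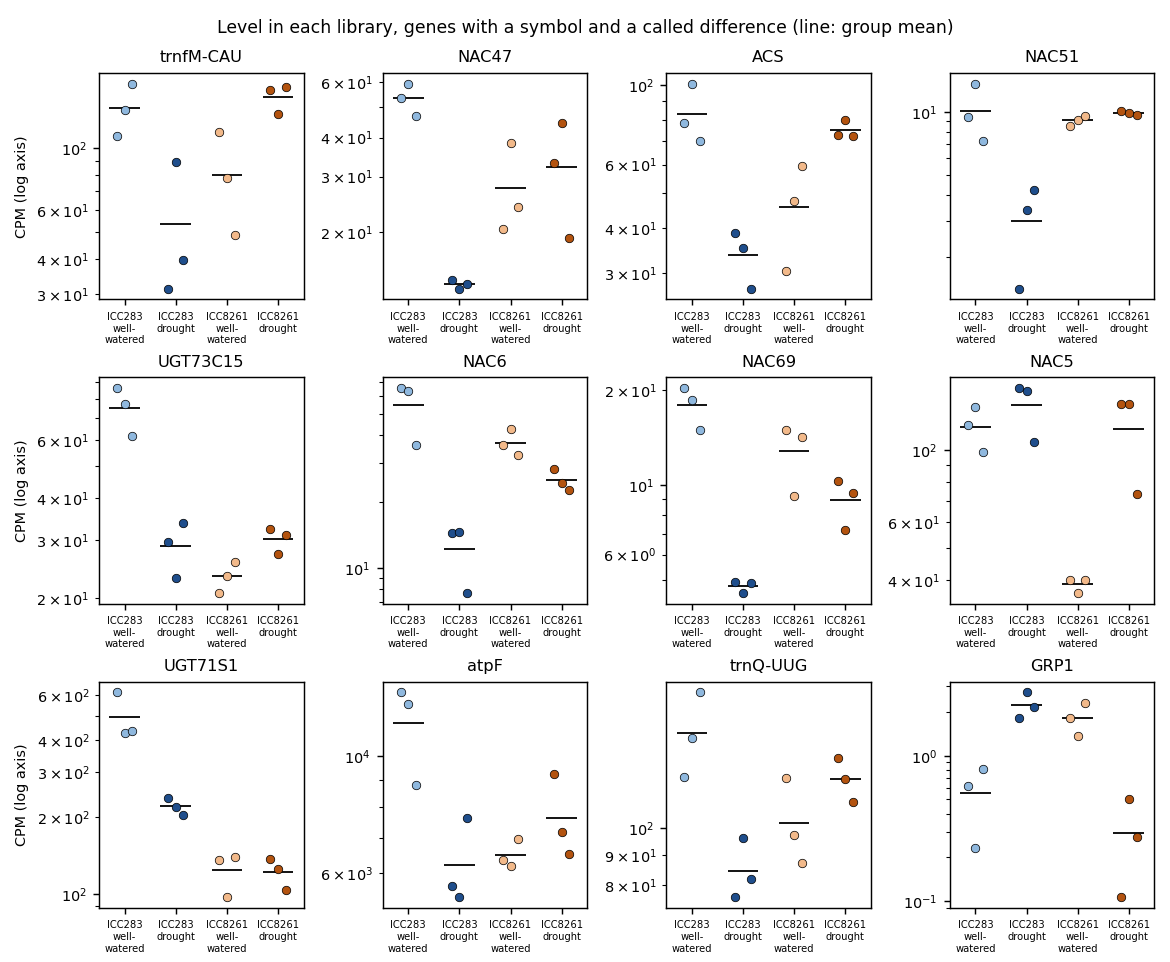
Points give the level in each library (CPM scaled by TMM, log axis that differs between panels) of the 12 genes with a symbol and a called difference, and lines give group means. In 9 of the panels the well-watered ICC283 libraries all lie above the drought libraries of the same genotype with no rise called in ICC8261. ACS and NAC5 rise in ICC8261, and GRP1 falls there. Of the 18591 genes tested, 8412 had separate groups in ICC283, in either direction.

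The genes without a symbol carry most of the calls, and no role is given for them here because the reference table holds no product names. LOC101489063 and LOC101499882 had the smallest p among the 168 genes that fell in ICC283 and were not called in ICC8261. LOC101489063 stood at 132, 121 and 106 CPM in well-watered and 25.8, 26.2 and 33.8 CPM in drought libraries of ICC283, and at 88.2, 65.6 and 67.4 CPM when well-watered and 57.9, 70.4 and 68.9 CPM under drought in ICC8261. Its ICC283 groups were far apart and its ICC8261 groups overlapped. It was lower in ICC8261 than in ICC283 when well-watered (-0.70 ± 0.16, adjusted p = 0.0157) and higher under drought (1.20 ± 0.16, adjusted p = 0.00107). The difference was 1.91 ± 0.23 (adjusted p = 0.00514), 2.25 ± 0.19 in the 8 libraries and 0.94 ± 0.82 with the count-file labels. LOC101499882, at 16.9, 25.6 and 19.6 CPM in well-watered and 4.43, 6.12 and 4.44 CPM in drought libraries of ICC283 and 8.69, 8.24 and 7.26 CPM when well-watered and 9.51, 8.42 and 9.06 CPM under drought in ICC8261, had the same turn in order. Its difference was 2.20 ± 0.27 (adjusted p = 0.00529; 2.29 ± 0.35 in the 8 libraries).

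Among the 144 genes that rose in ICC283 and were not called in ICC8261, LOC101506294 and LOC101493814 had the smallest p. LOC101506294 stood at 4.41, 4.64 and 7.07 CPM in well-watered and 26.7, 24.3 and 17.1 CPM in drought libraries of ICC283, and at 14.99, 17.3 and 16.1 CPM when well-watered and 11.1, 11.01 and 12.99 CPM under drought in ICC8261. Library 3 lay nearest to the other treatment in both ICC283 groups, which did not overlap. LOC101506294 rose in ICC283 by 2.07 ± 0.21 and had a log2 fold change of -0.46 ± 0.20 in ICC8261 (adjusted p = 0.121), a difference of -2.53 ± 0.29 (adjusted p = 0.00514; -2.93 ± 0.24 in the 8 libraries). LOC101493814 had 7.69, 6.72 and 7.97 CPM in well-watered and 78.5, 58.2 and 34.3 CPM in drought libraries of ICC283, and 15.9, 16.4 and 14.4 CPM when well-watered and 12.6, 16.8 and 17.1 CPM under drought in ICC8261, whose groups overlapped. Its drought level in ICC283 was high in all 3 libraries and lowest in library 3. The difference of -2.93 ± 0.35 (adjusted p = 0.00514) was -3.26 ± 0.30 in the 8 libraries and -1.63 ± 1.04 with the count-file labels.

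LOC101495087 and LOC101515132 had the smallest p among the 47 genes with opposite called changes. In ICC283 LOC101495087 fell from 194, 199 and 199 CPM to 91.5, 88.2 and 114 CPM, and in ICC8261 it rose from 18.8, 9.605 and 11.1 CPM to 42.04, 50.7 and 41.1 CPM. All 6 ICC283 libraries stayed above all 6 ICC8261 libraries, so the genotypes drew closer under drought without changing order. The drought effects were -1.01 ± 0.20 (adjusted p = 0.00233) and 1.76 ± 0.22 (adjusted p = 0.000273), and the difference was 2.78 ± 0.30 (adjusted p = 0.00514; 3.16 ± 0.17 in the 8 libraries). LOC101515132 moved the other way, from 18.2, 19.7 and 18.4 CPM to 32.2, 26.4 and 28.02 CPM in ICC283 and from 24.9, 25.6 and 23.5 CPM to 13.1, 14.1 and 14.8 CPM in ICC8261. None of its pairs of groups overlapped, with ICC8261 the higher genotype when well-watered and the lower under drought. The difference was -1.44 ± 0.18 (adjusted p = 0.00525; -1.42 ± 0.22 in the 8 libraries).

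LOC101495981 and LOC101500893 had the smallest p among the 43 genes that rose in ICC8261 and were not called in ICC283. LOC101495981 stood at 204, 176 and 186 CPM in well-watered and 149.8, 166 and 205 CPM in drought libraries of ICC283, which overlapped, and went from 166, 97.1 and 139 CPM to 717, 511 and 529 CPM in ICC8261. The ICC8261 drought libraries stood above all 9 others. It rose in ICC8261 by 2.13 ± 0.21 (adjusted p = 5.72e-05), and the difference was 2.25 ± 0.29 (adjusted p = 0.00529; 2.70 ± 0.28 in the 8 libraries). LOC101500893, at 312, 357 and 464 CPM when well-watered and 252, 308 and 333 CPM under drought in ICC283, went from 422, 351 and 466 CPM to 846, 899 and 960.1 CPM in ICC8261, again above all other libraries. Its difference was 1.47 ± 0.24 (adjusted p = 0.015; 1.43 ± 0.23 in the 8 libraries).

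LOC101511551 and LOC101507143 had the smallest p among the 13 genes that fell in ICC8261 and were not called in ICC283. LOC101511551 went from 27.3, 31.6 and 16.4 CPM to 2.43, 0.584 and 1.74 CPM in ICC8261 and stood at 4.82, 4.64 and 5.44 CPM when well-watered and 7.35, 2.93 and 2.705 CPM under drought in ICC283, where drought library 1 was the highest of the 6. It fell in ICC8261 (-4.01 ± 0.47, adjusted p = 0.000261) and the difference was -3.81 ± 0.64 (adjusted p = 0.0178; -3.61 ± 0.69 in the 8 libraries), lost without ICC283 well-watered library 2 or ICC8261 well-watered library 2. LOC101507143 showed a small change with little spread, from 36.8, 35.5 and 33.8 CPM to 21.97, 20.01 and 22.96 CPM in ICC8261 and from 26.8, 26.3 and 21.6 CPM to 29.7, 27.8 and 25.96 CPM in ICC283. The ICC8261 groups were separate and the ICC283 groups overlapped. Its difference was -0.87 ± 0.18 (adjusted p = 0.0306), -0.71 ± 0.18 in the 8 libraries and -0.13 ± 0.36 with the count-file labels. LOC101507143 was called in 4 of the 12 fits that left out 1 library.

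LOC101490722 and LOC101495909 had the smallest p among the 64 genes that changed the same way in both genotypes. LOC101490722 fell from 108, 107 and 119.5 CPM to 26.3, 28.5 and 29.8 CPM in ICC283 and from 107, 118 and 103 CPM to 77.5, 87.1 and 70.4 CPM in ICC8261. The genotypes overlapped when well-watered and were separate under drought, where ICC8261 kept the higher level. Its difference was 1.502 ± 0.18 (adjusted p = 0.00514; 1.42 ± 0.18 in the 8 libraries and 0.21 ± 0.84 with the count-file labels). LOC101495909 fell from 11.5, 15.1 and 15.6 CPM to 1.21, 0.976 and 0.974 CPM in ICC283 and from 10.3, 11.04 and 12.3 CPM to 5.39, 3.84 and 4.299 CPM in ICC8261. The difference was 2.40 ± 0.31 (adjusted p = 0.00529; 2.35 ± 0.37 in the 8 libraries).

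The 4 largest positive differences among called genes without a symbol, limited to genes that averaged 2 CPM or more in the highest group and had separate treatments in at least 1 genotype, were those of LOC101491020, LOC101507843, LOC101490948 and LOC101508158. LOC101507843 stood at 48.1, 44.3 and 22.2 CPM in well-watered and 2.31, 6.65 and 33.4 CPM in drought libraries of ICC283, and at 2.38, 3.101 and 1.82 CPM when well-watered and 59.4, 41.4 and 53.4 CPM under drought in ICC8261. LOC101490948 had 59.4, 48.9 and 23.6 CPM when well-watered and 1.61, 10.2 and 44.8 CPM under drought in ICC283, and 3.200, 5.899 and 3.63 CPM when well-watered and 64.2, 55.7 and 49.6 CPM under drought in ICC8261. LOC101508158 had 10.5, 11.4 and 4.35 CPM when well-watered and 0.302, 1.24 and 8.01 CPM under drought in ICC283, and 0.823, 0.908 and 0.7896 CPM when well-watered and 9.19, 7.25 and 6.403 CPM under drought in ICC8261. In all 3 genes the ICC8261 groups were separate, and in ICC283 drought library 3, whose treatment conflicts between the sources, lay above the well-watered library 3 while drought libraries 1 and 2 lay below every well-watered library. All 3 rose in ICC8261, by 4.39 ± 0.78, 3.72 ± 0.84 and 3.16 ± 0.82. Their differences were 5.84 ± 1.03 (adjusted p = 0.0237), 4.95 ± 1.11 (adjusted p = 0.0457) and 4.63 ± 1.10 (adjusted p = 0.0495). In the 8 libraries, which leave out library 3 of ICC283, they were 7.88 ± 0.56, 6.76 ± 0.92 and 6.97 ± 0.64. Under the count-file labels they were 3.32 ± 1.77, 2.95 ± 1.67 and 3.20 ± 1.48. LOC101507843 was called in 6 and the other pair in 2 of the 12 fits that left out 1 library.

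LOC101491020 had no read in the 3 drought libraries of ICC283 and 2.56, 3.25 and 1.63 CPM in the well-watered ones. With a floor of 3 counts over the drought group it was at least 22.8-fold lower there. In ICC8261 it stood at 1.65, 0.756 and 0.7896 CPM when well-watered and 0.317, 0.417 and 0.274 CPM under drought, with separate groups (log2 fold change -1.60 ± 0.55, adjusted p = 0.066). The fitted difference of 6.13 ± 1.29 (adjusted p = 0.0378; 6.64 ± 1.45 in the 8 libraries, adjusted p = 0.0231) depends on the prior count and is no bound. It was called in 3 of the 12 fits that left out 1 library. The only other called gene with a group at 0 was LOC101496012, named after its values were seen, which was at least 12.2-fold lower under drought in ICC283.

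Among the called genes without a symbol that averaged 2 CPM or more in the highest group and had separate treatments in at least 1 genotype, the 4 largest negative differences were those of LOC101506702, LOC101511551, LOC101511736 and LOC101508575. LOC101506702 went from 6.13, 6.58 and 7.26 CPM to 0.422, 0.0834 and 1.01 CPM in ICC8261 and stood at 0.103, 0.232 and 0.362 CPM when well-watered and 0.604, 0.177 and 0.216 CPM under drought in ICC283. The well-watered ICC8261 libraries stood above all 9 others. It fell in ICC8261 (-3.71 ± 0.56, adjusted p = 0.000943), and the difference was -4.17 ± 1.02 (adjusted p = 0.0494; -4.36 ± 1.06 in the 8 libraries). LOC101511736 went from 0.308, 0.812 and 1.99 CPM to 7.35, 6.48 and 3.57 CPM in ICC283, where library 3 lay nearest to the other treatment in each group, and stood at 6.86, 5.45 and 5.92 CPM when well-watered and 2.22, 2.501 and 4.66 CPM under drought in ICC8261. Its difference was -3.39 ± 0.66 (adjusted p = 0.0265; -4.31 ± 0.64 in the 8 libraries). LOC101508575, with 1 to 31 reads per library, went from 0.103, 0.232 and 0.272 CPM to 3.12, 2.04 and 1.51 CPM in ICC283 and stood at 1.28, 1.21 and 1.26 CPM when well-watered and 1.901, 0.834 and 1.28 CPM under drought in ICC8261. The difference was -3.30 ± 0.69 (adjusted p = 0.0314; -3.50 ± 0.84 in the 8 libraries). In the 12 fits that left out 1 library LOC101506702 was called in 3, LOC101511736 in 4 and LOC101508575 in 2.

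Of 5 tested dehydrin, LEA and osmolyte genes, protective genes of the drought response, 4 rose in ICC283 and 3 in ICC8261 (16.6% and 9.83% of all genes), and 0 had a called difference. The median difference was 0.04. CAGOLS1 was not called for drought in either genotype, nor P5CS in ICC8261. The dehydrin gene DHN, named after its values were seen, stood at 9.03, 6.26 and 39.95 CPM in well-watered and 729.7, 743 and 339.7 CPM in drought libraries of ICC283, and at 7.13, 4.46 and 11.8 CPM when well-watered and 299.8, 328 and 189 CPM under drought in ICC8261. All drought libraries lay far above the well-watered ones, and library 3 lay nearest to the other treatment in the 4 groups. DHN rose by 5.02 ± 0.69 in ICC283 and 5.12 ± 0.70 in ICC8261, a difference of 0.10 ± 0.85 (adjusted p = 0.963), but the sign of that difference turned to -1.64 ± 0.62 in the 8 libraries and -1.57 ± 2.61 with the count-file labels, and it was -1.14 without ICC283 well-watered library 3. CAPLEA-1 and CapLEA-2, of the LEA genes, rose by 6.78 and 4.19 in ICC283 and by 6.69 and 4.23 in ICC8261. Their differences were -0.08 ± 1.53 and 0.04 ± 0.63, and in the 8 libraries -0.95 and -1.37. P5CS, of proline synthesis, had a difference of -0.23 ± 0.84 (adjusted p = 0.909; -1.36 in the 8 libraries, adjusted p = 0.296). The member with the smallest p was the galactinol synthase gene CAGOLS1, at 6.46, 6.26 and 6.16 CPM when well-watered and 3.72, 4.35 and 6.82 CPM under drought in ICC283 and 3.66, 3.63 and 4.74 CPM when well-watered and 4.12, 2.83 and 3.57 CPM under drought in ICC8261, with a difference of 0.15 ± 0.37 (adjusted p = 0.862; 0.56 ± 0.39 in the 8 libraries, adjusted p = 0.375). With a standard error of 0.85 for DHN, a difference of 1 on the log2 scale could not be detected over this spread between libraries.

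The other transcription factor lists, which hold only genes found by symbol, had no called member. Their counts of differences above 0 stand beside 54.8% of all genes. The 19 heat stress factors tested had a median of 0.34, with 13 above 0, and HSFC1 had the smallest p. HSFC1 rose from 11.6, 18.8 and 18.2 CPM to 40.3, 36.1 and 22.4 CPM in ICC283 and from 8.78, 6.66 and 8.37 CPM to 39.8, 45.3 and 21.5 CPM in ICC8261, with separate groups in both, a difference of 1.14 ± 0.42 (adjusted p = 0.151; 0.72 ± 0.45 in the 8 libraries, adjusted p = 0.337) and -0.62 ± 1.02 with the count-file labels. The 20 auxin response factors had a median of -0.11, with 5 above 0. ARF6 fell in ICC8261 from 27.7, 39.7 and 43.1 CPM to 17.96, 16.01 and 17.4 CPM and stood at 33.4, 34.4 and 39.95 CPM when well-watered and 24.8, 29.01 and 35.9 CPM under drought in ICC283, where the groups overlapped. Its difference was -0.84 ± 0.25 (adjusted p = 0.0908), and -0.86 ± 0.19 and called in the 8 libraries (adjusted p = 0.021). The list of 5 other transcription factors had 5 differences above 0 and a median of 1.63. CARERF1, listed under a symbol of ethylene response factors, fell in ICC283 from 107, 148 and 55.6 CPM to 39.5, 37.4 and 20.8 CPM and stood at 46.3, 56.8 and 25.3 CPM when well-watered and 45.2, 66.03 and 54.4 CPM under drought in ICC8261. Its difference was 2.04 ± 0.53 (adjusted p = 0.0629), and 2.04 ± 0.51 in the 8 libraries (adjusted p = 0.0471). The WRKY genes WRKY40 and CaWRKY50 had differences of 1.63 ± 0.64 (adjusted p = 0.184; 1.38 in the 8 libraries, adjusted p = 0.012) and 2.04 ± 0.70 (adjusted p = 0.136; 2.102 in the 8 libraries, adjusted p = 0.0219).

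Of 11 circadian clock genes 0 were called, 3 differences were above 0 (54.8% of all genes) and the median was -0.21. PRR37B, a pseudo-response regulator gene, rose in both genotypes, from 48.2, 42.8 and 40.8 CPM to 119.8, 113 and 112 CPM in ICC283 and from 67.7, 66.3 and 76.4 CPM to 110.0, 139 and 105 CPM in ICC8261, with no overlap in either. Its rise was smaller in ICC8261, and the difference of -0.64 ± 0.19 was not called (adjusted p = 0.0899), and -0.73 ± 0.18 in the 8 libraries (adjusted p = 0.029). The 6 FLOWERING LOCUS T family and flowering genes had a median of 0.85 and 0 calls. FTA1, a FLOWERING LOCUS T gene by its symbol, rose from 4.103, 3.71 and 3.62 CPM to 68.8, 70.2 and 37.4 CPM in ICC283 and from 2.93, 1.51 and 1.18 CPM to 13.2, 12.9 and 6.31 CPM in ICC8261, with the ICC283 drought libraries above all others and a difference of -1.40 ± 0.53 (adjusted p = 0.164; -1.29 ± 0.50 in the 8 libraries, adjusted p = 0.129).

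Genes of phenylpropanoid and isoflavonoid synthesis, which make lignin precursors and the defence compounds of legumes, had 10 tested members with 10 differences above 0 (54.8% of all genes), a median of 0.86 and 0 calls. In ICC283 4 of the 10 fell and 0 rose (20.1% and 16.6% of all genes), and in ICC8261 0 fell and 0 rose (8.82% and 9.83%). PAL, the entry enzyme of the pathway, fell in ICC283 (log2 fold change -1.40) and had -0.55 in ICC8261, with a difference of 0.85 ± 0.36 (adjusted p = 0.215; 1.16 in the 8 libraries, adjusted p = 0.073). CHS, chalcone synthase, had a difference of 0.87 ± 0.37 (adjusted p = 0.216; 1.14 in the 8 libraries, adjusted p = 0.177) and IFR, isoflavone reductase, of 1.25 ± 0.68 (adjusted p = 0.339; 1.70 in the 8 libraries, adjusted p = 0.123). The cytochrome P450 gene cyp81E3v2, with the smallest p, stood at 9.95, 4.64 and 1.99 CPM when well-watered and 1.81, 1.77 and 0.108 CPM under drought in ICC283 and at 0.0914, 0.227 and 0.316 CPM when well-watered and 0.422, 0.417 and 0.366 CPM under drought in ICC8261, so its difference of 2.99 ± 1.23 (adjusted p = 0.2; 2.57 ± 0.86 in the 8 libraries, adjusted p = 0.0805) rests on less than 1 CPM in ICC8261. With the count-file labels the median of the list was 0.72 and 10 of 10 were above 0.

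Of 7 cell wall genes 0 were called and the median was 0.83, which was -0.70 with the count-file labels. The pectin methylesterase gene pme1 fell in ICC283 from 12.8, 14.6 and 13.4 CPM to 7.75, 6.300 and 9.09 CPM and stood at 21.4, 18.8 and 15.7 CPM when well-watered and 19.6, 18.3 and 18.3 CPM under drought in ICC8261. Its difference was 0.83 ± 0.23 (adjusted p = 0.0717; 1.13 ± 0.25 in the 8 libraries, adjusted p = 0.0221). Among signalling genes 0 of 14 MAP kinases (median 0.22) and 0 of 10 calcium signalling genes (median 0.44) were called. CDPK2, a calcium-dependent protein kinase gene, stood at 189, 204 and 105 CPM when well-watered and 113, 113 and 72.9 CPM under drought in ICC283 and 93.99, 133 and 100.4 CPM when well-watered and 119, 142 and 109 CPM under drought in ICC8261, with overlap in both and a difference of 0.91 ± 0.35 (adjusted p = 0.172; 0.79 ± 0.21 in the 8 libraries, adjusted p = 0.0359). MAPK2 had the smallest p of the MAP kinases, with a difference of 0.41 ± 0.23 (adjusted p = 0.337; 0.38 ± 0.20 in the 8 libraries, adjusted p = 0.229).

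Of 5 metallothionein and ferritin genes 0 were called and the median was 0.78. The metallothionein gene MT-2 rose in ICC8261 from 199, 152 and 162 CPM to 284, 290.3 and 284 CPM and stood at 396, 305 and 301 CPM when well-watered and 263, 383 and 329.8 CPM under drought in ICC283, with a difference of 0.78 ± 0.24 (adjusted p = 0.0896; 1.00 ± 0.26 in the 8 libraries, adjusted p = 0.0378). Both protease inhibitor genes tested had a positive difference, beside 54.8% of all genes, and neither was called. The gene kpi1 had 1.95, 3.25 and 10.8 CPM when well-watered and 1.61, 1.86 and 2.596 CPM under drought in ICC283 and 16.8, 11.6 and 13.2 CPM when well-watered and 26.9, 21.3 and 26.4 CPM under drought in ICC8261, and the difference was 2.27 ± 0.66 (adjusted p = 0.0849; 1.70 ± 0.36 in the 8 libraries, adjusted p = 0.0179). With the count-file labels kpi1 had the opposite sign, -0.27 ± 0.86. The other gene, tpi3, had a difference of 1.32 with the tables' labels, 0.07 in the 8 libraries and -1.10 with the count-file labels. The 8 genes in common use as references had 0 called differences and a median of 0.11, but many changed with drought. In ICC283 4 of the 8 fell and 0 rose (20.1% and 16.6% of all genes), and in ICC8261 5 fell and 0 rose (8.82% and 9.83%). TUBB, a beta-tubulin gene, fell in both (log2 fold changes of -1.17 and -0.56) and had a difference of 0.61 ± 0.22 (adjusted p = 0.153; 0.46 ± 0.21 in the 8 libraries, adjusted p = 0.184).

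In the 8 libraries, where 7.88% of all genes were called positive and 4.68% negative, some of these lists had called members. The 5 other transcription factors had 3 positive calls, the 5 metallothionein and ferritin genes 2, and the flowering, cell wall, calcium signalling and protease inhibitor genes 1 each. Negative calls were 2 of the 20 auxin response factors, 1 of the 11 clock genes and 1 of the 8 reference genes. The heat stress factors, the dehydrin, LEA and osmolyte genes, the phenylpropanoid genes and the MAP kinases had 0 in either direction.

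**Figure D5:**
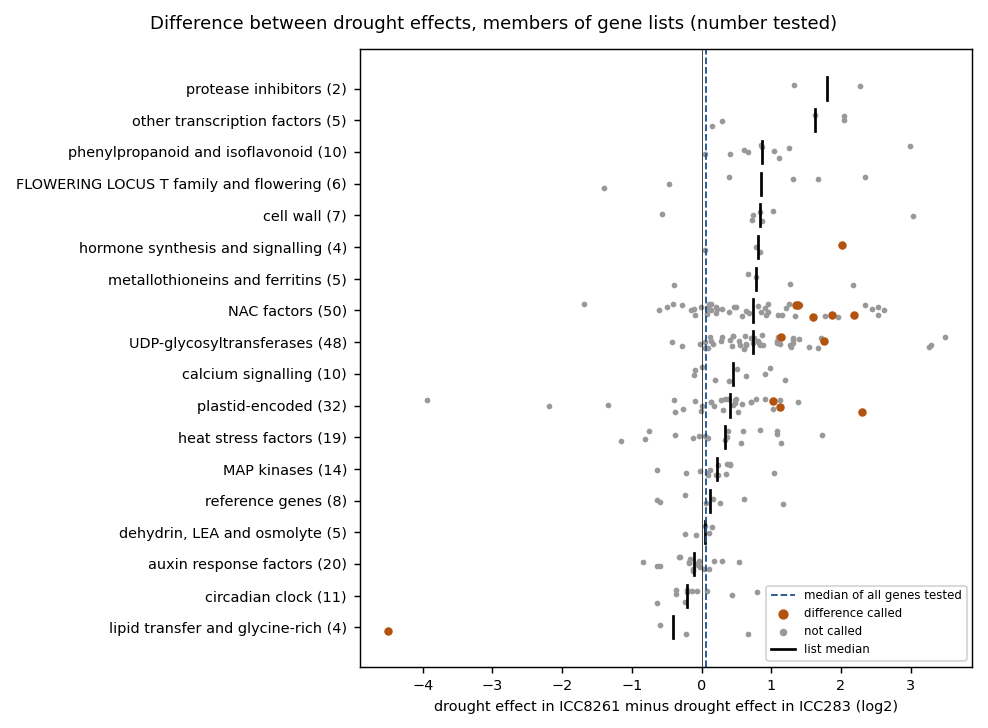
Each point is a tested member of a gene list, with its difference between the drought effects (log2) on the x axis, black bars mark list medians, and the dashed line marks the median of all genes tested, 0.07. NAC factors and UDP-glycosyltransferases have medians of 0.74, dehydrin, LEA and osmolyte genes of 0.04, and the called members are 5 NAC, 2 UGT, 3 plastid-encoded, 1 hormone and 1 glycine-rich gene.

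LOC101500093, the gene with most reads and named for that after its values were seen, took between 6.34% and 18.4% of the reads of a library. It stood at 187740.0, 134260.0 and 134590.0 CPM in well-watered and 192430.0, 183070.0 and 148470.0 CPM in drought libraries of ICC283, and at 77792, 55350.0 and 56324 CPM when well-watered and 146140.0, 119590.0 and 119520.0 CPM under drought in ICC8261. The well-watered ICC8261 libraries were the lowest of the 12, and the ICC283 groups overlapped. It rose in ICC8261 by 1.02 ± 0.18 (adjusted p = 0.00234), and its difference of 0.83 ± 0.25 was not called (adjusted p = 0.0901), but was 1.06 ± 0.22 and called in the 8 libraries (adjusted p = 0.0181).

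The authors' own edgeR comparisons were made within each genotype. Of the 479 genes, the authors' deposited table of ICC283 alone listed 238, that of ICC8261 alone listed 71, both listed 149 and neither listed 21. Over all 18591 genes tested the corresponding numbers in the authors' deposited tables were 2004, 2618, 2597 and 11372. The authors' deposited table of DESeq2 values gave ACS a log2 change of -1.28 for ICC283 and 0.69 for ICC8261, and UGT73C15 -1.37 and 0.37. For NAC47 the authors' deposited table gave -1.94 and 0.21. For GRP1 it gave 1.62 and -1.73, smaller in size than the edgeR values above, and the authors' edgeR tables listed GRP1 for neither genotype. Among the named genes with a called difference, some changes in ICC8261 not called here had an adjusted p under 0.05 in the authors' DESeq2 values. These were NAC6 (-0.55, adjusted p = 0.0111), trnfM-CAU (0.89, adjusted p = 0.000761) and LOC101511736 (-0.84, adjusted p = 0.0367). These tables use the same reads and labels as the fit above and are no separate support.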

How the data were processed

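Leaf RNA was sequenced as paired reads of 150 bases in 12 libraries, 3 per group, grouped by the titles in the labels. Whether libraries come from separate pots is not stated, and a p-value then reflects variation among libraries that may be technical. The authors deposited whole-number counts per gene and library. The authors also deposited comparison tables with log2 fold changes and p-values, raw and adjusted, and with normalized counts for each library, treated here as a signal. Reads were handled with Trimmomatic, TopHat2 2.1.1, Cufflinks 2.0.2 and HTSeq and compared with DESeq2 and edgeR, all named in the submitters' processing notes without their order. No build, annotation or strand setting is given in the sources used.

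Each normalized column was divided by its smallest value above 0, which gave whole reads for 100% of values within a tolerance of 0.02. The recovered reads were equal to a count file at 27233 of 27233 shared features, and to any other at no more than 24.1%. Of the 27234 features of the count files, 1 is written as a date in a table and was not used. The summary lines of the count files stayed out of library sizes and tests, and their shares not unique (44.1% to 53.5%) and on no feature (16.6% to 21.4%) are of all counted lines.

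For the tests, edgeR 4.0.16 (R 4.3.3) was run on the reads: genes were kept by filterByExpr (minimum count 10, minimum total 15), libraries scaled by TMM, and 4 group means fitted by robust glmQLFit. The glmQLFTest was two-sided, its p-values were adjusted by Benjamini-Hochberg across the 18591 genes kept, and genes were called at 0.05. All 4 groups share 1 estimate of the spread. The SE of a log2 value is its size divided by the root of F. Alternatives changed the scaling (RLE, upper quartile), the filter, the robust estimation, the test (DESeq2 1.42.0), the labels and the libraries, or added the replicate number as a block. DESeq2 with the count-file labels was added after the data had been seen. The analysis steps were tested on simulated data.

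Gene names came from the deposited tables and a RefSeq gene table (assembly Cicar.CDCFrontier_v2.0) that matched 24445 features (89.8%) and gives no products, so list members were found by symbol only. Promoter motifs were planned and not searched, since no sequence table was used here. Named genes were those called with a symbol, the 4 largest differences each way without a symbol that averaged 2 CPM or more in the highest group and had separate libraries in a genotype, the 2 with the smallest p in each pattern, and the member with the smallest p in each list. The members and lists were chosen with earlier results of these data known.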

Additional observations from a re-analysis of the deposited data

Results flagged for a closer look

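For the 31 genes named above as called, the drought effects of the genotypes differed by the direct test of the difference. This was edgeR's quasi-likelihood test (adjusted p under 0.05) with the 12 libraries and the tables' labels. None of these genes was called with the count-file labels, and NAC5 and trnfM-CAU were not called in the 8 libraries. Among genes with a symbol the difference on the log2 scale was 2.31 for trnfM-CAU, 2.19 for NAC47, 2.01 for ACS, 1.87 for NAC51, 1.76 for UGT73C15, 1.60 for NAC6, 1.39 for NAC69, 1.36 for NAC5, 1.14 for UGT71S1, 1.12 for atpF, 1.02 for trnQ-UUG and -4.50 for GRP1. Positive differences without a symbol were 6.13 for LOC101491020, 5.84 for LOC101507843, 4.95 for LOC101490948, 4.63 for LOC101508158, 2.78 for LOC101495087, 2.40 for LOC101495909, 2.25 for LOC101495981, 2.20 for LOC101499882, 1.91 for LOC101489063, 1.502 for LOC101490722 and 1.47 for LOC101500893. Negative differences without a symbol were -4.17 for LOC101506702, -3.81 for LOC101511551, -3.39 for LOC101511736, -3.30 for LOC101508575, -2.93 for LOC101493814, -2.53 for LOC101506294, -1.44 for LOC101515132 and -0.87 for LOC101507143. With 3 libraries a group, no test of single outlying libraries was made.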

How the results depend on the processing

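Within the tables' labels, 479 calls became 484 with RLE scaling, 437 with upper-quartile scaling, 447 without a filter, 566 with a stricter filter and 481 without robust estimation, and 1267 with DESeq2, 479 of them shared with the same sign. The 8 libraries of agreed treatment gave 2354 calls, the count-file labels 0 by edgeR and 0 by DESeq2, and leaving out 1 library between 55 and 2298. The cause of these shifts was not tested. With the replicate number as a block there were 615 calls, 425 of them shared, and the replicate block turned the sign of none of the 479 genes. The numbers are not stated to pair the libraries: correlations of same-numbered deviations ran from -0.12 to 0.43, and 8 of 12 libraries correlated best with their own number. For the 31 called genes named, 682 values under the alternatives kept their sign, 459 with a call and 223 without. The alternatives reuse the reads that chose these genes, so the kept signs are no separate support. Without library 3 of ICC283, well-watered or drought, the named calls lost were trnfM-CAU (either library) and NAC5 (the drought library), and each of the other 10 libraries, left out in turn, ended more of them. For the 15 named genes that were not called, 289 of 330 values stayed uncalled with the same sign, 26 were called, and 15 had the opposite sign. With the count-file labels (DESeq2 in brackets) these were kpi1 at -0.27 (-0.27), HSFC1 at -0.62 (-0.63), TUBB at -0.086 (-0.084) and DHN at -1.57 (-1.57). DHN was also at -1.64 in the 8 libraries, -0.0022 with the replicate block and, as 1 library was left out, between -1.14 (without ICC283 well-watered library 3) and 0.54, with -0.18, -0.19 and -0.057 without ICC283 drought library 3, ICC8261 well-watered library 2 and ICC8261 drought library 2. CAGOLS1 lay between -0.011 (without ICC283 drought library 1) and 0.44. Depth limited genes such as GRP1 and LOC101508575, with 1 to 31 reads per library.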

Other observations

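Of the 479 called genes, 465 have a class in the reference table, and 455 of these (97.8%) are protein coding and 4 (0.86%) long non-coding, beside 96.5% and 1.87% of all genes tested. The called genes had a median level of 19.2 CPM and all tested genes of 11.4 CPM. No test was made of these shares.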
